A study of Mus musculus with 15 samples.

Results

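The genes described here are 10 markers of monocytes and macrophages: Lyz2, Cd68, F13a1, Csf1r, Ly86, Mpeg1, Ctss, Cd14, Itgam and Ccr2. The genes were chosen with earlier results of these data known, so a share over all genes beside their counts is no test. Their probe sets were taken by symbol, as every probe set on the array that is annotated to 1 of these genes alone. That gave 13 probe sets for the 10 genes, of 17097 genes measured in all. Each gene was read from its brightest probe set. Ccr2 had 4 probe sets and each of the other genes had 1.

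The study compared blood stem and progenitor cells carrying a HOXB4 retrovirus with cells carrying a control retrovirus. HOXB4 is a homeobox transcription factor known for expanding blood stem cells when forced. Marrow of female C57Bl/6 mice given 5-fluorouracil (5-FU) was transduced with MSCV-HOXB4-ires-YFP or with MSCV-ires-GFP and was transplanted into lethally irradiated mice. MSCV is a retroviral vector whose own promoter drives the insert in blood cells of many kinds. Fluorescent LSK cells, which are lineage-negative, Sca-1+ and Kit+, were sorted from the recipients and were not cultured. HOXB4 cells were taken 6, 12 and 20 weeks after the transplant and GFP cells 12 and 20 weeks after it, and each of these groups has 3 of the 15 arrays. All 5 groups share the 5-FU, the transduction, the irradiated host and the sort. The age of the mice and the lineage antibodies are not given in the sources used here. Nor is it stated whether replicate arrays hold RNA of separate mice. A p-value here sets a difference against the spread of these arrays, and that spread may be technical. GFP cells at 6 weeks were not analysed here. The last time is 24 weeks in the series text and 20 weeks in the sample titles, which were followed.

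Monocytes arise in the marrow from granulocyte-monocyte progenitors, under the transcription factors PU.1 and C/EBP and the growth factor receptor that Csf1r encodes. They leave the marrow through the chemokine receptor CCR2 and give rise to macrophages in tissues, where they digest what they take up with lysozyme and lysosomal cathepsins and sense bacterial products through CD14 and Toll-like receptors. An LSK sort is meant to hold the cells upstream of this path, and the product of Itgam, CD11b, is an antigen commonly used to gate mature cells out. Several of the 10 genes are also used by other blood cells: Lyz2 and Itgam by neutrophils, F13a1 by megakaryocytes, and Ly86 by B cells.

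Promoter sequence is shown for 4 genes, to give the letters of the matches counted after them. Of the 7 genes called lower in HOXB4 cells at 20 weeks, these 4 are the ones in which a match to either motif was found. The windows of Ly86 and Mpeg1 held neither, and Csf1r was left out of the search, as described after the sequences. Each sequence is the 250 bases directly before a RefSeq start of the gene on GRCm38.p6, written 5′ to 3′ on the strand of the gene. Capitals mark the PU.1 core GAGGAA and the C/EBP form TTNNGNAA, each searched on both strands, so that a reverse complement is in capitals too. No marked match overlaps another. The windows are chr13:37050245-37050494 (minus strand) for F13a1, chr11:69666171-69666420 (minus strand) for Cd68, chr7:128062390-128062639 (plus strand) for Itgam and chr10:117282273-117282522 (minus strand) for Lyz2.
F13a1: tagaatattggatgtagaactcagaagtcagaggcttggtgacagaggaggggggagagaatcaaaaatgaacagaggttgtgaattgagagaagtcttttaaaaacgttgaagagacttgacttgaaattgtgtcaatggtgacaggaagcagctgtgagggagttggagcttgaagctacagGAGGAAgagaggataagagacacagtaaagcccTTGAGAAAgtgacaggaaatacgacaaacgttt
Cd68: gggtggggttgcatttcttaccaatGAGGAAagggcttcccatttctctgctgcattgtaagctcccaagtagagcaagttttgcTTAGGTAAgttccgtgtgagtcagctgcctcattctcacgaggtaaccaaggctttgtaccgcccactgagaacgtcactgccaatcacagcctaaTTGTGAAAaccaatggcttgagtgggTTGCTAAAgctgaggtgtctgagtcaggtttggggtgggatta
Itgam: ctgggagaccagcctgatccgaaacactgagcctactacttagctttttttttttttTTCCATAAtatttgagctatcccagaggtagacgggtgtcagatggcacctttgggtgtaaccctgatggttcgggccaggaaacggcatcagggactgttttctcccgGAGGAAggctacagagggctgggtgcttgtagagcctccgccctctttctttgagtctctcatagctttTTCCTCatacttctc
Lyz2: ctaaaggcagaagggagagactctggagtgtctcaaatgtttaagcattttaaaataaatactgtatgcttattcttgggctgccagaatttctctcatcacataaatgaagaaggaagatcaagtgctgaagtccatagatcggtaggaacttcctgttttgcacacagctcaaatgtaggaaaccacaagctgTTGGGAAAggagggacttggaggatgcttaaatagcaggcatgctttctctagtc

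The F13a1 window shown held 1 PU.1 core and 1 C/EBP form. RefSeq gives a second start for F13a1, and its window, chr13:37049214-37049463 (minus strand), held 0 of either. The Cd68 window held 1 PU.1 core and 3 C/EBP forms, and the Itgam window held 2 PU.1 cores and 1 C/EBP form. The Lyz2 window held 1 C/EBP form and 0 PU.1 cores. For the 10 genes, windows on chromosome 18 were left out, and Csf1r and Cd14 lie there, so 8 genes were searched. The count over all promoter windows did not leave out that chromosome. These 8 genes have 9 windows. A PU.1 core was present in 4 of the 9, which are those of Cd68, Itgam and Ctss and the first of F13a1, against 23.3% of all 32851 promoter windows. A C/EBP form was present in 5 of the 9, which are those of Cd68, Itgam, Lyz2 and Ccr2 and the first of F13a1, against 36.8% of all windows. These are matches of letters, and binding was not measured.

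Values are the authors' log2 RMA signals, in which 1 unit is a doubling. RMA corrects the background, aligns the probe distributions of the arrays and combines the probes of each probe set into 1 value. Levels of different genes are not set against each other, because probe sets differ in how brightly they hybridise. No detection calls were used, and dim signals can be background. The median of an array lay between 5.25 and 5.4. Arrays of a group correlated between 0.969 and 0.995, and arrays of different groups between 0.952 and 0.988. On the Gapdh control probe sets, 3′ signal exceeded 5′ signal by 3.76 log2 units on replicate 1 of HOXB4 cells at 6 weeks. The excess was 0.809 to 2.02 on the other 14 arrays, so results that turn on that replicate are also given without it. Replicates 2 and 3 of its group were at 1.68 and 1.71. Arrays at 12 weeks were at 0.809 to 1.25 and those at 20 weeks at 1 to 2.02. The part of this excess in the comparisons with 6 weeks was not tested. Kit, a gene of the sort, was at 7.89 to 8.38 in HOXB4 cells and at 8.33 to 8.79 in GFP cells, over all times. The probe set of mouse Hoxb4 did not pass between the vectors, at -0.30 ± 0.24 at 12 weeks (adjusted p = 0.528) and -0.15 ± 0.24 at 20 weeks (0.782). Since no source used here says whether its probes match the insert of the vector, it does not check the labels.

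Most of the 10 genes were highest in GFP cells at 20 weeks. Of the 10, 8 had their highest group mean there, with no overlap with the arrays of the next group: Lyz2, Cd68, F13a1, Csf1r, Ly86, Mpeg1, Ctss and Itgam. The share of all genes with this pattern was not counted. The mean level of the 10 genes on an array was 6.07 to 6.78 in HOXB4 cells at 6 weeks, 6.41 to 6.70 at 12 weeks and 6.37 to 6.63 at 20 weeks, against 6.96 to 7.20 at 12 weeks and 8.29 to 8.40 at 20 weeks in GFP cells. The 9 HOXB4 arrays therefore lay below all 6 GFP arrays on this mean. In RNA of a sorted mixture, fewer cells of a type and less RNA per cell cannot be told apart.

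**Figure D1:**
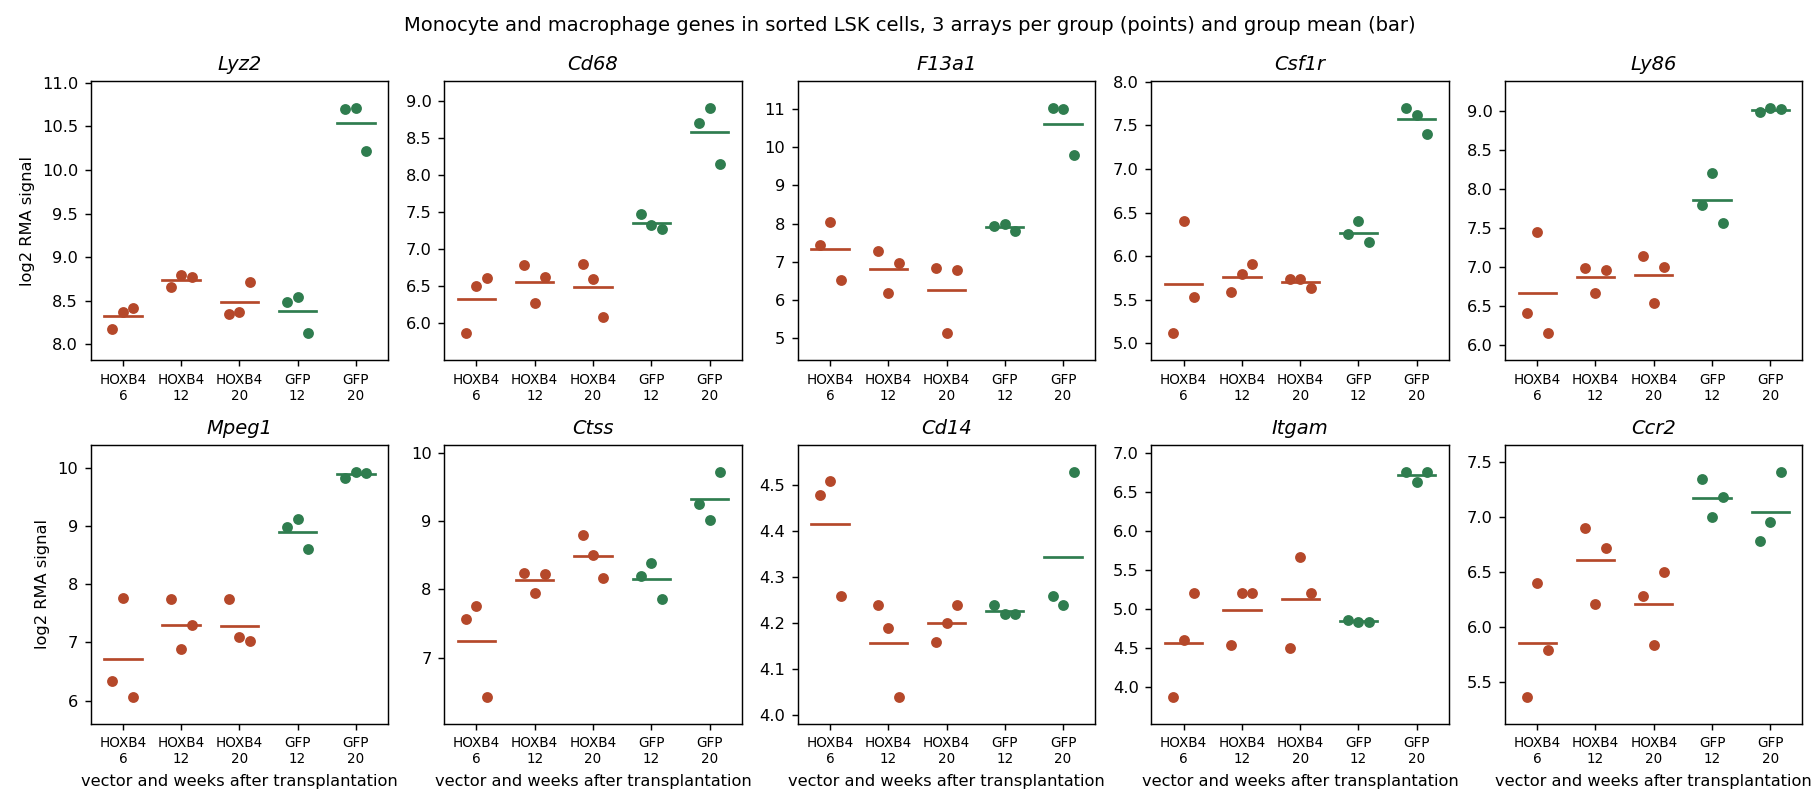
Log2 RMA signal of each of the 10 genes on every array, with 1 panel per gene and 1 point per array, and a line at the group mean of 3 arrays. In 8 panels the 3 points of GFP cells at 20 weeks lie above all others, while Ccr2 and Cd14 show no such step.

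HOXB4 and GFP cells were first compared at 20 weeks, the later time at which both vectors were profiled. In HOXB4 cells 7 of the 10 genes were lower: F13a1, Mpeg1, Ly86, Cd68, Lyz2, Csf1r and Itgam. The differences ran from -1.59 for Itgam to -4.35 for F13a1 on the log2 scale, which is 3.01-fold to 20.3-fold. Of all genes, 5.18% were called lower and 3.77% higher in this comparison (limma, adjusted p under 0.05). The median difference of the 10 genes was -1.97, against 0.02 for all genes. The 3 HOXB4 and 3 GFP arrays were fully separated for 9 of the 10 genes, all lower in HOXB4 cells, and for 12.5% of all genes in that direction. Ctss, Cd14 and Ccr2 were not called.

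F13a1 encodes the A subunit of coagulation factor XIII, which monocytes and megakaryocytes carry in their cytoplasm. At 20 weeks it stood at 6.84, 5.14 and 6.79 in HOXB4 cells, against 11.02, 10.99 and 9.80 in GFP cells. HOXB4 cells had 7.45, 8.05 and 6.52 at 6 weeks. At 12 weeks it read 7.29, 6.18 and 6.97 in HOXB4 cells, against 7.93, 7.99 and 7.81 in GFP cells. The groups at 20 weeks lay far apart, with replicate 2 of the HOXB4 cells the lowest of the 15 arrays and replicate 3 of the GFP cells the lowest of its group. The difference at 20 weeks was -4.35 ± 0.47 (log2, SE, n = 3 each), or 20.3-fold, with a limma adjusted p of 5.23e-05. This was the widest difference among the 10 genes. Of 9 measured megakaryocyte genes, 0 were lower and 5 were higher in HOXB4 cells at 20 weeks.

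Lyz2 encodes lysozyme M, an enzyme that cuts bacterial cell walls and is stored by both macrophages and neutrophils. Its signal at 20 weeks was 8.35, 8.37 and 8.72 in HOXB4 cells, against 10.70, 10.71 and 10.22 in GFP cells. HOXB4 cells had 8.17, 8.37 and 8.42 at 6 weeks and 8.66, 8.79 and 8.77 at 12 weeks, and GFP cells had 8.49, 8.54 and 8.13 at 12 weeks. The GFP arrays at 20 weeks thus stood apart from the other 12, which spanned 8.13 to 8.79. HOXB4 cells at 20 weeks were lower by 4.19-fold (log2 difference -2.07 ± 0.16, adjusted p = 4.8e-06 by limma). The name of its probe set marks possible cross-hybridisation, and the neighbouring gene Lyz1 is close in sequence, so Lyz2 signal may hold some of Lyz1.

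Cd68 encodes macrosialin, a glycoprotein of the lysosomal membrane, and Mpeg1 encodes perforin-2, a pore-forming protein of phagocytes. For Cd68 the values at 20 weeks were 6.80, 6.60 and 6.09 in HOXB4 cells, against 8.71, 8.91 and 8.15 in GFP cells. Cd68 was 4.28-fold lower in HOXB4 cells (log2 difference -2.10 ± 0.23, adjusted p = 6.59e-05 by limma), and its groups did not overlap. Mpeg1 read 7.74, 7.10 and 7.02 in HOXB4 cells, against 9.82, 9.93 and 9.90 in GFP cells. It was 6.05-fold lower in HOXB4 cells (-2.60 ± 0.35, adjusted p = 0.000252), and its groups did not overlap either.

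Among the receptors, Csf1r encodes the receptor for CSF1, the growth factor on which monocytes and macrophages depend. At 20 weeks Csf1r was at 5.74, 5.74 and 5.64 in HOXB4 cells, against 7.70, 7.62 and 7.40 in GFP cells. Both groups were tight and did not overlap, and Csf1r was 3.65-fold lower in HOXB4 cells (-1.87 ± 0.23, adjusted p = 0.000142 by limma). Ly86 encodes MD-1, a secreted partner of the Toll-like receptor homologue CD180. Its signal was 7.14, 6.54 and 7.0 in HOXB4 cells, against 8.99, 9.04 and 9.03 in GFP cells, again without overlap. The difference was 4.36-fold (-2.12 ± 0.27, adjusted p = 0.000164).

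Itgam encodes CD11b, the alpha chain of the integrin Mac-1, with which phagocytes bind complement-coated particles and vessel walls. It read 4.50, 5.67 and 5.21 in HOXB4 cells at 20 weeks, against 6.76, 6.63 and 6.76 in GFP cells. The HOXB4 arrays were spread and all lay below the GFP arrays, with a 3.01-fold difference (-1.59 ± 0.31, adjusted p = 0.00407 by limma). Outside GFP cells at 20 weeks the 12 arrays spanned 3.88 to 5.67, where signal may be partly background. Itgb2, which encodes the beta chain that pairs with CD11b, was not called: it averaged 9.25 ± 0.51 in HOXB4 cells, against 8.82 ± 0.63 in GFP cells at 20 weeks (SD, n = 3 each, log2 difference 0.43, adjusted p = 0.446).

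Ctss, Ccr2 and Cd14 were the genes not called at 20 weeks. Ctss encodes cathepsin S, the protease that trims the invariant chain of MHC class II in antigen-presenting cells. It read 8.80, 8.50 and 8.17 in HOXB4 cells, against 9.24, 9.01 and 9.72 in GFP cells, so that every HOXB4 array lay below every GFP array. The difference of -0.83 ± 0.29 had an adjusted p of 0.0967 and a 95% interval of -1.45 to -0.21. Cd14 encodes the co-receptor that hands lipopolysaccharide to Toll-like receptor 4. It stayed between 4.04 and 4.53 on all 15 arrays, in the dimmest 1 in 3 of genes (mean below 4.81), and its difference at 20 weeks was -0.14 with an interval of -0.37 to 0.09 (adjusted p = 0.51). At such a signal a difference in Cd14 may not be detectable.

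Ccr2 encodes the receptor for CCL2, by which inflammatory monocytes leave the marrow. On its brightest probe set (1421187_PM_at) the values at 20 weeks were 6.28, 5.84 and 6.5 in HOXB4 cells, against 6.78, 6.95 and 7.41 in GFP cells. The groups did not overlap, and the difference was -0.84 ± 0.26 (adjusted p = 0.057 by limma, 95% interval -1.39 to -0.29). Without replicate 1 or 2 of the HOXB4 cells at 6 weeks it was called lower (limma adjusted p = 0.0319 and 0.0287). The 3 other probe sets of Ccr2 gave -1.41 ± 0.20 on 1421186_PM_at (adjusted p = 0.00054 over all named probe sets), -0.83 ± 0.24 on 1421188_PM_at (0.0483) and -0.38 ± 0.37 on 1460067_PM_at (0.613). All 4 had lower means in HOXB4 cells at 20 weeks, and 2 of the 4 were called. At 12 weeks 1460067_PM_at pointed the other way, at 1.11 ± 0.37 (adjusted p = 0.118), while the other 3 ran from -0.75 to -0.37, none of them called.

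**Figure D2:**
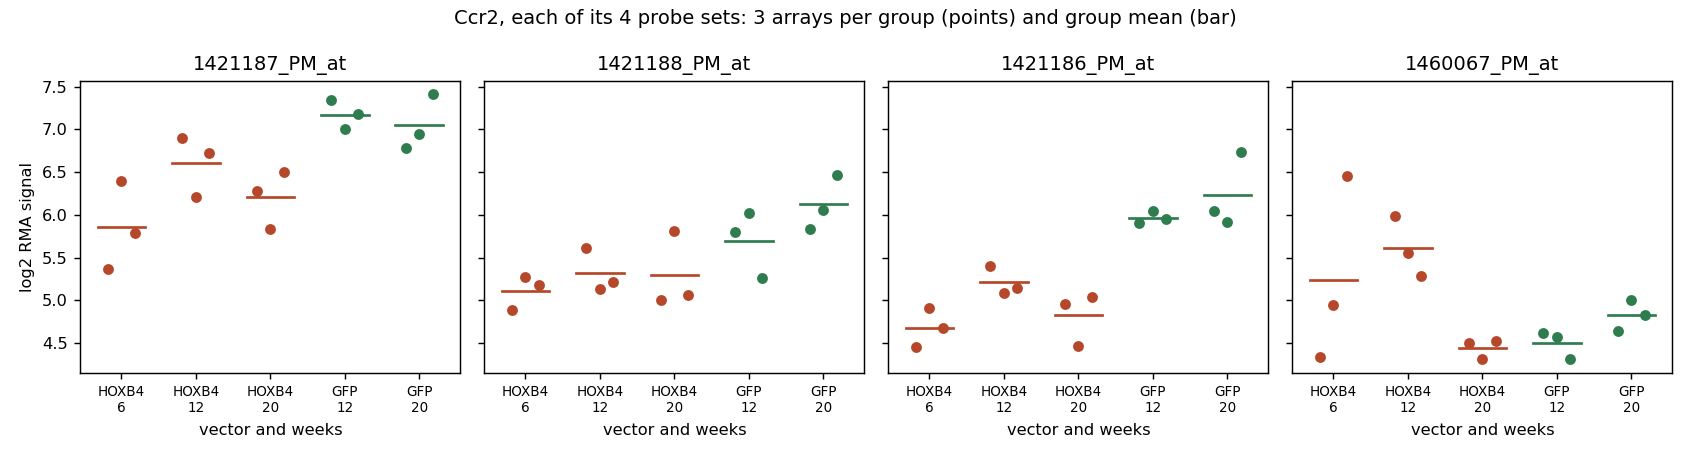
Log2 RMA signal of the 4 Ccr2 probe sets on every array, with 1 panel per probe set, 1 point per array, and a line at the mean of the 3 arrays of a group. On 1421186_PM_at the HOXB4 arrays at 20 weeks lie below the GFP arrays of that time, and on 1460067_PM_at the HOXB4 mean lies above the GFP mean at 12 weeks.

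At 12 weeks the differences were smaller, and 1 of the 10 genes was called. Mpeg1 was lower in HOXB4 cells, where it read 7.74, 6.88 and 7.30, against 8.98, 9.11 and 8.61 in GFP cells. That is a 3.02-fold difference (-1.60 ± 0.35, adjusted p = 0.0195 by limma) between groups that did not overlap. The call was lost without replicate 2 or 3 of the HOXB4 cells (adjusted p = 0.0933 and 0.0635) or without replicate 1 or 2 of the GFP cells (0.0843 and 0.0724), which leaves 0 of 10 genes called. All 15 arrays share 1 estimate of the spread, and 3 genes were called without replicate 1 or 2 of the HOXB4 cells at 6 weeks, and 2 without replicate 3 of those cells, replicate 2 of the HOXB4 cells at 20 weeks or replicate 3 of the GFP cells at 20 weeks. Of all genes, 2.20% were called lower and 1.82% higher at 12 weeks.

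Of the genes that were not called at 12 weeks, Ly86 and Cd68 came nearest. Ly86 read 6.99, 6.66 and 6.96 in HOXB4 cells, against 7.80, 8.21 and 7.56 in GFP cells (-0.99 ± 0.27, adjusted p = 0.0534). Cd68 read 6.79, 6.27 and 6.62 in HOXB4 cells, against 7.48, 7.33 and 7.27 in GFP cells (-0.80 ± 0.23, adjusted p = 0.0715). Both had every HOXB4 array below every GFP array. Without replicate 1 of the HOXB4 cells at 6 weeks both were called (limma adjusted p = 0.0489 for Ly86 and 0.0405 for Cd68). Csf1r (-0.51, adjusted p = 0.243), Ccr2 on its brightest probe set (-0.56, 0.242) and F13a1 (-1.09, 0.218) had lower means in HOXB4 cells too, also without overlap.

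Lyz2 had the opposite sign at 12 weeks. All 3 HOXB4 arrays, at 8.66 to 8.79, lay above the GFP arrays, at 8.13 to 8.54, with a difference of 0.35 ± 0.16 (adjusted p = 0.229, 95% interval 0.02 to 0.69). For Ctss the difference was -0.01 (95% interval -0.63 to 0.60), for Itgam 0.14 (-0.52 to 0.79) and for Cd14 -0.07 (-0.30 to 0.16), and the arrays of these 3 genes overlapped between groups. Over the 10 genes, 8 differences were negative, with a median of -0.53 against -0.02 for all genes. Arrays did not overlap for 7 of them, against 34.8% of all genes in either direction.

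**Figure D3:**
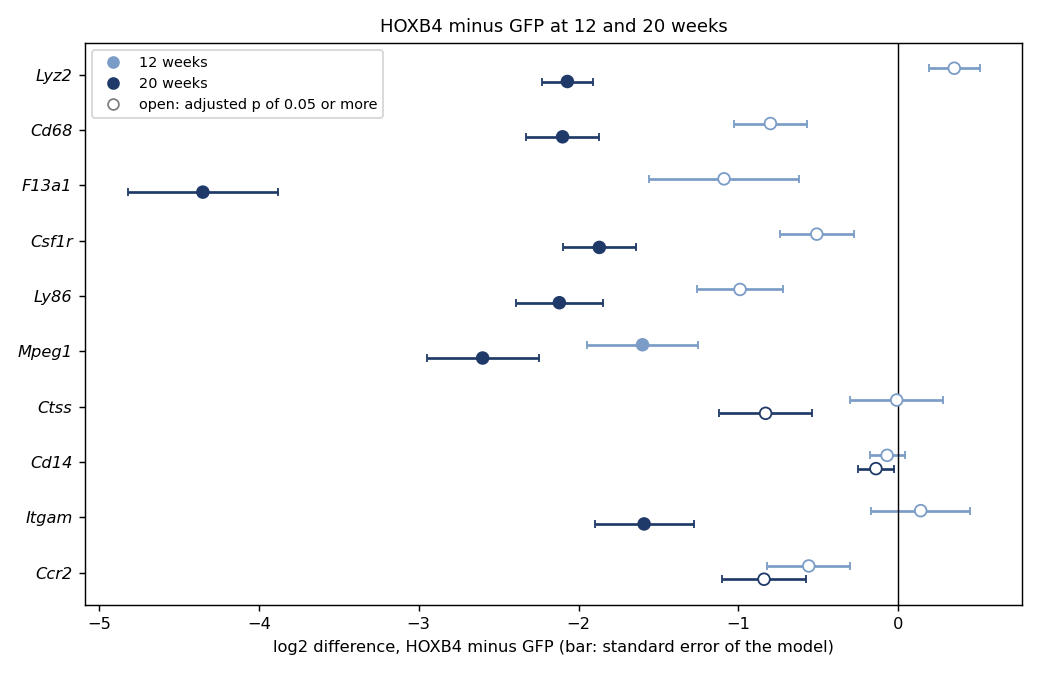
Log2 difference of HOXB4 minus GFP cells (horizontal axis) for each of the 10 genes at 12 and 20 weeks, with bars for the SE of the model, filled points for genes called at an adjusted p under 0.05 and open points for the others. F13a1 at 20 weeks lies farthest from 0, at -4.35, and Lyz2 lies above 0 at 12 weeks and below 0 at 20 weeks.

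The difference between the effects at 20 and at 12 weeks was tested directly. It was called for Lyz2, at -2.42 ± 0.22 (adjusted p = 0.000176 by limma), and for F13a1, at -3.25 ± 0.67 (adjusted p = 0.0454), while 0.386% of all genes were called in that direction. F13a1 was called in 12 of the 24 alternatives tried, with adjusted p from 0.00168 to 0.139, and Lyz2 in all 24. Lyz2 alone was called when any array at 12 weeks, replicate 2 of the HOXB4 cells at 20 weeks, or replicate 1 or 2 of the GFP cells at 20 weeks was left out. Without replicate 1 of the HOXB4 cells at 6 weeks, whose Gapdh signal stood apart, 4 genes were called, with Csf1r and Itgam added. For the other 8 genes the difference ran from -1.73 for Itgam (adjusted p = 0.114) to -0.07 for Cd14 (0.95). All 10 were negative, with a median of -1.22 against 0.02 for all genes. As the mean of both times, 8 genes were called lower in HOXB4 cells, where 9.16% of all genes were: Lyz2, Cd68, F13a1, Csf1r, Ly86, Mpeg1, Itgam and Ccr2. Their mean differences ran from -0.70 for Ccr2 (adjusted p = 0.0173) to -2.72 for F13a1 (0.000107). Itgam was called in 15 of the 24 alternatives, with a highest adjusted p of 0.0926, and leaving out any of 9 arrays ended its call. Its difference at 12 weeks alone was 0.14, in the other direction. Ccr2 was called in 23 of the 24.

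Time was then compared within each vector. Within GFP cells, 7 of the 10 genes were higher at 20 than at 12 weeks: Lyz2, F13a1, Itgam, Csf1r, Cd68, Ctss and Ly86. Of all genes, 1.23% were called higher and 1.14% lower. F13a1 read 11.02, 10.99 and 9.80 at 20 weeks, against 7.93, 7.99 and 7.81 at 12 weeks, a 6.48-fold difference (2.70 ± 0.47, adjusted p = 0.00632 by limma). Lyz2 was 4.47-fold higher at 20 weeks (2.16 ± 0.16, adjusted p = 5.28e-06) and Itgam 3.66-fold higher (1.87 ± 0.31, 0.00416). Itgam read 6.76, 6.63 and 6.76 at 20 weeks, against 4.86, 4.83 and 4.84 at 12 weeks, with the arrays of each group close together. The values at 12 weeks were near 4.81, the limit of the dimmest 1 in 3 genes, and may be background. This comparison shares the GFP arrays with those between the vectors, so the comparisons are not independent.

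The other calls in GFP cells were smaller. Csf1r was higher at 20 weeks by 1.30 ± 0.23 (adjusted p = 0.00663), Cd68 by 1.23 ± 0.23 (0.0104), Ctss by 1.17 ± 0.29 (0.0471) and Ly86 by 1.16 ± 0.27 (0.0347). Mpeg1 was at 9.82 to 9.93 at 20 weeks and at 8.61 to 9.11 at 12 weeks, without overlap and without a call (0.98 ± 0.35, adjusted p = 0.193). Ccr2 did not separate, at 6.78, 6.95 and 7.41 at 20 weeks and 7.34, 7.0 and 7.18 at 12 weeks (-0.13 ± 0.26, adjusted p = 0.918). Without replicate 3 of GFP cells at 12 weeks, or replicate 1 or 2 of GFP cells at 20 weeks, 4 genes were called, which were Lyz2, F13a1, Csf1r and Itgam. These 4 were called in all 24 alternatives, Cd68 in 21, Ly86 in 15 and Ctss in 11. Leaving out any of 10 arrays ended the call of Ctss (highest adjusted p = 0.191 by limma), and leaving out any of 8 that of Ly86 (0.155). Of the 18 other monocyte genes, 4 were higher and 0 lower at 20 weeks in GFP cells, and of the 10 mature neutrophil genes 6 were higher and 0 lower, with a median of 3.01, against 0 higher and 4 lower of 9 megakaryocyte genes. The part of these markers in the time differences was not tested.

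Within HOXB4 cells the time comparisons gave 1 call in all, for Ctss. Between 12 and 6 weeks 0 of the 10 genes were called by limma, where 1.57% of all genes were called. At an unadjusted p under 0.05 there were 4, with Cd14 lower and Lyz2, Ctss and Ccr2 higher at 12 weeks. The share of all genes at that unadjusted threshold was not counted. Between 20 and 12 weeks 0 were called and 0 had an unadjusted p under 0.05, with differences from -0.56 to 0.36 and 0.252% of all genes called. Ctss was the exception over the full span: it read 7.56, 7.75 and 6.43 at 6 weeks, 8.24, 7.95 and 8.22 at 12 weeks and 8.80, 8.50 and 8.17 at 20 weeks. It was higher at 20 than at 6 weeks by 1.25 ± 0.29 (adjusted p = 0.027), where 3.30% of all genes were called higher. F13a1 had means of 7.34 ± 0.77, 6.81 ± 0.57 and 6.26 ± 0.97 at 6, 12 and 20 weeks (SD, n = 3 each), and was not called (-1.08 ± 0.47 between 20 and 6 weeks, adjusted p = 0.209).

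The HOXB4 arrays at 6 weeks were uneven. Replicate 2 was the highest of its group for Csf1r (6.41, against 5.12 and 5.53), Ly86 (7.45, against 6.41 and 6.15), Mpeg1 (7.76, against 6.34 and 6.07), F13a1, Ccr2 and Ctss. Without it 3 genes were called higher at 12 than at 6 weeks, namely Mpeg1 (1.10, adjusted p = 0.0222), Ctss (1.14, 0.0417) and Ccr2 (1.03, 0.0279), and 2 genes were called between 20 and 6 weeks. Without replicate 1, whose Gapdh signal stood apart, 0 genes were called between 12 and 6 weeks and 1 between 20 and 6 weeks. The call of Ctss between 20 and 6 weeks was lost without replicate 3 at 6 weeks or replicate 1 or 2 at 20 weeks.

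**Figure D4:**
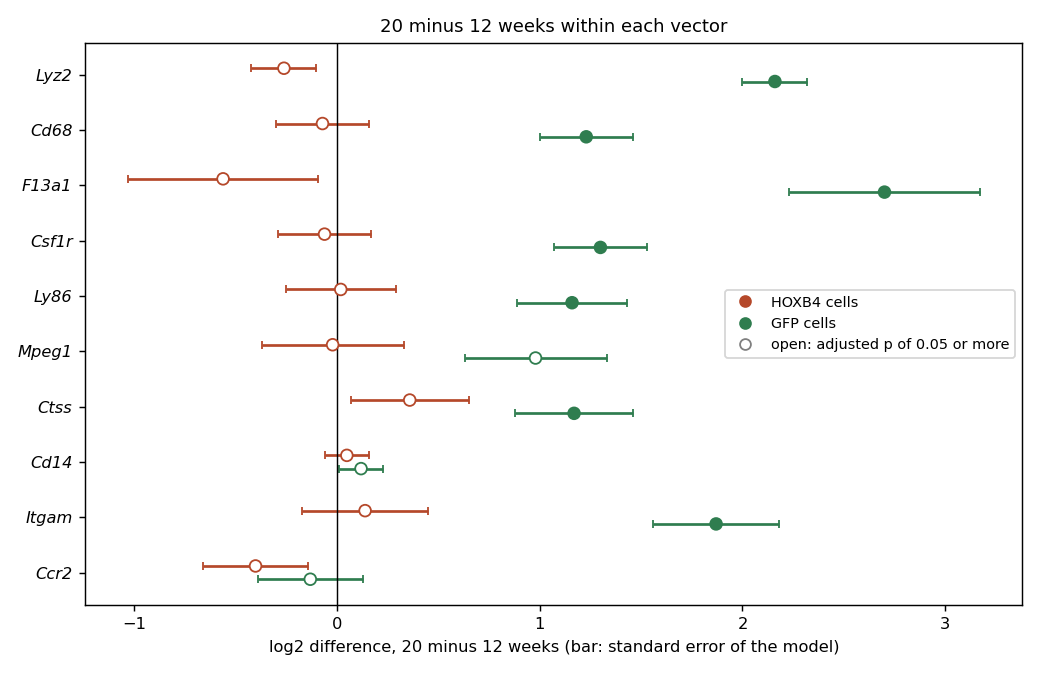
Log2 difference of 20 minus 12 weeks (horizontal axis) for each of the 10 genes, within HOXB4 cells and within GFP cells, with bars for the SE of the model, filled points for genes called at an adjusted p under 0.05 and open points for the others. In GFP cells 7 genes are called, all to the right of 0, and in HOXB4 cells all points are open and lie between -0.56 and 0.36.

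The order of the 5 groups separated the 10 genes further. For Cd68, Csf1r, Ly86 and Mpeg1, GFP cells at 20 weeks were highest, GFP cells at 12 weeks came next, and no GFP array at 12 weeks overlapped the HOXB4 group next below. For Csf1r, however, replicate 2 of the HOXB4 cells at 6 weeks, at 6.41, lay above those GFP arrays, at 6.16 to 6.40. For Ccr2 the means, from high to low, were 7.17 in GFP cells at 12 weeks, 7.04 in those at 20 weeks, and 6.61, 6.21 and 5.86 in HOXB4 cells at 12, 20 and 6 weeks, and all neighbours in that order overlapped. This is the order on the brightest probe set. On the 3 other probe sets the GFP mean was higher at 20 than at 12 weeks, by 0.43, 0.27 and 0.32, none of which was called. For Cd14 all neighbours overlapped too. Over the 15 arrays the 45 pairs of these genes correlated between -0.0879 and 0.975, with a median r of 0.704. After each group mean was removed the range was -0.631 to 0.905 and the median 0.28. All pairs share the same arrays and normalisation.

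The genes most like the group in profile were found by correlation with the mean of the 10 over the 15 arrays, among 1096 genes with an SD of at least 0.5. They were Sorl1, a sorting receptor (r = 0.967), Pld4, a lysosomal nuclease (0.962), Pglyrp1 (0.957), Tyrobp (0.956) and Hvcn1, a proton channel of phagocytes and B cells (0.954). Of the 10, the same measure against the mean of the other members was highest for Ly86 (0.974) and Csf1r (0.968) and lowest for Ccr2 (0.659) and Cd14 (0.144). Pglyrp1, which encodes a granule protein of neutrophils, averaged 6.70 ± 0.39 in HOXB4 cells, against 10.35 ± 0.39 in GFP cells at 20 weeks (SD, n = 3 each). Tyrobp, the adaptor DAP12 of myeloid receptors, averaged 9.44 ± 0.17 in HOXB4 and 11.33 ± 0.31 in GFP cells. Both were chosen by their profile over these same arrays, so their differences are given with no test.

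Further lists of genes around these 10 were counted at 20 weeks. Of 18 other monocyte genes, 10 were lower and 0 higher in HOXB4 cells, with a median difference of -0.85. Ms4a6c, a membrane protein of the MS4A family, averaged 6.57 ± 0.36 in HOXB4 and 9.47 ± 0.51 in GFP cells (SD, n = 3 each, -2.90, adjusted p = 2.77e-05). Cybb, the membrane subunit of the phagocyte NADPH oxidase, averaged 6.39 ± 0.19 in HOXB4 and 9.34 ± 0.15 in GFP cells (-2.95, 9.39e-05), and Lgals3, which encodes galectin-3, 5.55 ± 0.36 in HOXB4 and 7.97 ± 0.32 in GFP cells (-2.41, 4.97e-05). Of 16 tissue macrophage genes 1 was lower, the iron exporter gene Slc40a1 (-0.97, adjusted p = 0.0263), and 0 were higher. Adgre1 (-0.63, 0.055), which encodes the macrophage antigen F4/80, and the complement gene C1qa (-0.55, 0.183) were not called, and the mean level of these 16 genes was 4.60 to 4.80 in HOXB4 cells, against 4.55 to 5.05 in GFP cells.

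Of 12 monocyte transcription factors, 7 were lower and 0 higher in HOXB4 cells at 20 weeks, with a median of -1.24. Cebpa, needed to form granulocyte-monocyte progenitors, averaged 6.54 ± 0.04 in HOXB4 and 9.23 ± 0.46 in GFP cells (SD, n = 3 each, -2.69, adjusted p = 8.93e-06 by limma). Cebpb, of the same family, averaged 6.22 ± 0.23 in HOXB4 and 7.75 ± 0.20 in GFP cells (-1.54, 1.68e-05), and Cebpd 5.24 ± 0.51 in HOXB4 and 8.12 ± 0.58 in GFP cells (-2.88, 1.5e-05). Cebpa and Cebpb were also lower at 12 weeks (-1.53, adjusted p = 0.00319, and -0.75, 0.012), where 4 of the 12 were called lower. Of the 18 other monocyte genes, 4 were lower at 12 weeks, Ms4a6c (-1.46, adjusted p = 0.014) and Lgals3 (-1.05, 0.0366) among them, and 0 were higher, and of the 16 tissue macrophage genes 0 were called.

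Beside Csf1r, 3 of 9 myeloid cytokine receptors and ligands were lower at 20 weeks and 0 higher: Csf3r, the receptor of the granulocyte factor G-CSF (-1.65, adjusted p = 0.00082), Il6ra (-1.62, 0.000129) and Ifngr1 (-0.78, 0.00397). Beside Ctss, 4 of 13 other cathepsins and legumain were lower and 0 higher. Ctsh, an aminopeptidase of lysosomes, averaged 4.51 ± 1.04 in HOXB4 and 7.78 ± 0.16 in GFP cells (SD, n = 3 each, -3.27, adjusted p = 0.000151), and Ctsb 9.01 ± 0.33 in HOXB4 and 10.10 ± 0.20 in GFP cells (-1.09, 0.000302). Beside Cd14 and Ly86, 4 of 16 Toll-like receptor and lipopolysaccharide recognition genes were lower and 0 higher, led by Lbp, which encodes the protein that passes lipopolysaccharide to CD14 (-2.64, adjusted p = 1.02e-05). Beside Itgam and Ccr2, 1 of 9 leukocyte integrin and chemotaxis genes was lower, the chemokine receptor gene Ccr1 (-0.58, adjusted p = 0.00696). Ccr1 was dim, at 2.85 ± 0.01 in HOXB4 and 3.43 ± 0.20 in GFP cells (SD, n = 3 each), so both means may be background, and its difference ran from -0.68 to -0.09 over the alternatives.

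**Figure D5:**
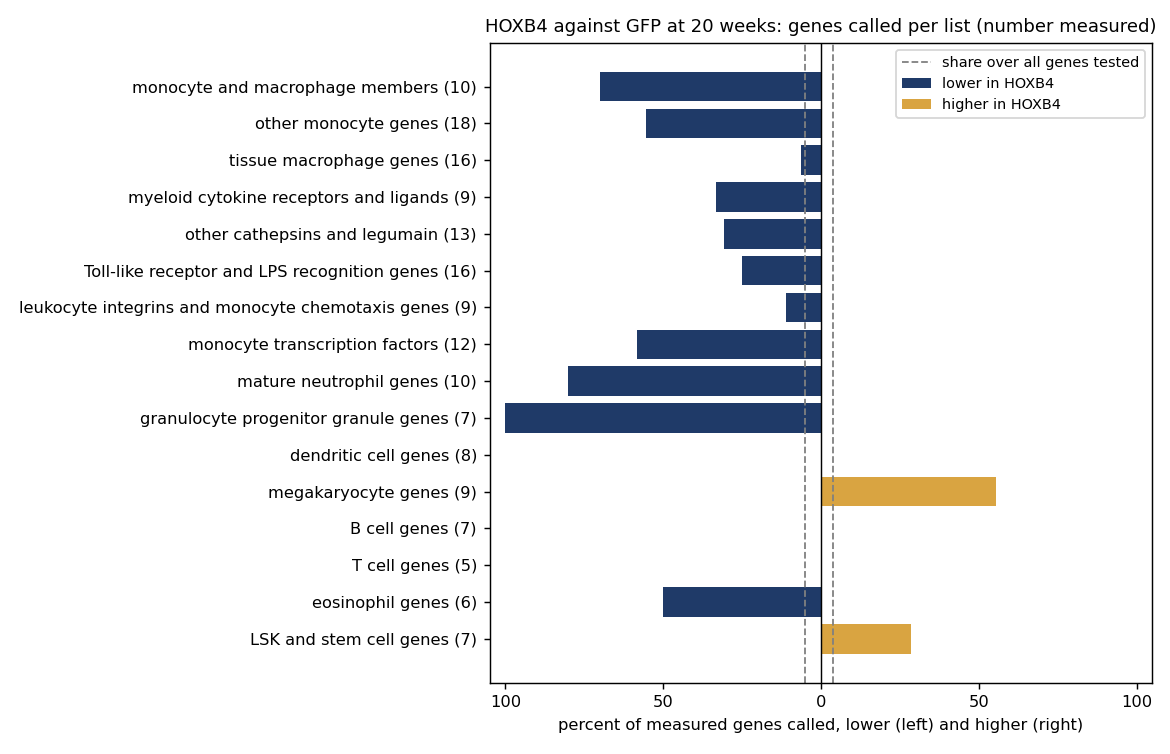
Percent of the measured genes of each list that were called lower (bars to the left) or higher (bars to the right) in HOXB4 against GFP cells at 20 weeks, with the number measured after each list name and dashed lines at the shares over all genes, 5.18% lower and 3.77% higher. Bars of the monocyte, transcription factor and neutrophil lists run to the left, and those of the megakaryocyte and LSK lists to the right.

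Genes of other blood cells, which a sort can carry along, moved in the same arrays. Of 10 mature neutrophil genes, 8 were lower and 0 higher in HOXB4 cells at 20 weeks, with a median of -2.67, and all 7 measured granule genes of granulocyte progenitors were lower, with a median of -3.40. The mean level of the 10 neutrophil genes on an array was 4.90 to 6.89 in HOXB4 cells at 6 weeks, 7.45 to 7.94 at 12 weeks and 6.07 to 7.20 at 20 weeks, against 6.28 to 6.94 at 12 weeks and 8.84 to 8.86 at 20 weeks in GFP cells. As for Lyz2, this mean level in HOXB4 cells lay above that in GFP cells at 12 weeks and below it at 20 weeks. The 7 granule genes of granulocyte progenitors did not share this change of sign. At 12 weeks 5 of them were lower and 0 higher in HOXB4 cells, with a median of -1.79. Their mean levels at 12 weeks were 8.35 to 8.84 in HOXB4 cells, against 9.86 to 10.13 in GFP cells. Ltf, the lactoferrin gene of neutrophil granules, differed by 1.15 at 12 weeks (adjusted p = 0.0973) and by -2.73 at 20 weeks (0.000297). Their part in the result for Lyz2, Itgam and the other shared genes was not tested.

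Megakaryocyte genes went the other way at 20 weeks, with 0 of 9 lower and 5 higher in HOXB4 cells and mean levels of 6.29 to 7.18 in HOXB4 cells, against 5.28 to 5.63 in GFP cells. Of 7 measured LSK and stem cell genes, 0 were lower and 2 higher in HOXB4 cells at 20 weeks, with mean levels of 6.94 to 7.63 in HOXB4 cells, against 6.66 to 6.88 in GFP cells. At 12 weeks 2 of the 7 were lower, Kit among them (-0.63, adjusted p = 0.014). Of 7 B cell genes 0 were called at 20 weeks and 5 were higher in HOXB4 cells at 12 weeks, with mean levels of 7.69 to 8.16 in HOXB4 cells, against 5.56 to 5.76 in GFP cells at 12 weeks. Of 6 eosinophil genes 3 were lower and 0 higher at 20 weeks, with mean levels of 4.72 to 6.26 in HOXB4 cells, against 6.45 to 7.36 in GFP cells. Dendritic cell genes gave 0 calls of 8 and T cell genes 0 of 5 at 20 weeks. The part of these markers in the results for the 10 genes was not tested.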

How the data were processed

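Per the labels' protocols, sorted LSK cells were lysed without culture, RNA was isolated by RNAqueous-Micro, and 20 ng of it was amplified and labelled with biotin using NuGEN reagents. Per the submitters' processing notes, the authors ran RMA in Partek 6.5, and the deposited values are the log2 signals it gave. The filters on probes are not given in the sources used here.

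The table holds 45141 probe sets, of which the platform annotation pairs 28898 with 1 symbol. It gives several symbols for 551, left unnamed here, and does not list 15692. Symbols were updated through the gene identifier against the RefSeq gene table of GRCm38.p6 (28689 matched, 209 kept the annotation's symbol). The brightest probe set of each gene, by its mean over the 15 arrays, was tested, and 7180 genes had more than 1. Group means were fitted to the 15 arrays together in limma 3.58.1 and R 4.3.3 (lmFit and eBayes), which left 10 residual degrees of freedom and added 4.55 from the prior. P-values are two-sided and Benjamini-Hochberg adjusted over 17097 genes, and calls were made under an adjusted p of 0.05. The test was checked on simulated data. An exact permutation test of 3 against 3 arrays has 0.1 as its lowest two-sided p, so p-values rest on the model, and the number of arrays limits the precision.

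The 10 genes and all lists were chosen with earlier results of these data known. Besides the 10, the text could name at most 4 genes per list with the smallest p, and the 5 genes outside the 10 closest to them in profile. Hoxb4 was added as a check of the labels, after its values were seen. Genes with no probe set of their own symbol alone, such as Ly6c2 and Ly6g, were not analysed here. As the 24 alternatives, the groups compared were fitted alone, the dimmest 1 in 3 genes were removed, all named probe sets or the mean of probe sets was used, arrays were quantile-normalised again or median-centred, a variance trend with robust moderation, array weights or a replicate block was added, and each array was left out in turn.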

Additional observations from a re-analysis of the deposited data

Results flagged for a closer look

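The effect of HOXB4 against GFP differed between 20 and 12 weeks, by a test of the difference itself in limma, for Lyz2 (-2.42 on the log2 scale, adjusted p = 0.000176) and F13a1 (-3.25, adjusted p = 0.0454). Among the other monocyte genes and transcription factors that the text names, the same held for Cybb (-3.57, adjusted p = 0.0025) and Cebpd (-2.27, adjusted p = 0.0122). In markers of neutrophils and their progenitors it held for Ltf (-3.89, adjusted p = 0.0025), Cd177 (-3.79, adjusted p = 0.0025), Lcn2 (-5.55, adjusted p = 0.00995) and Fcnb (-4.00, adjusted p = 0.000733), and in B cell markers for Ighm (-3.96, adjusted p = 0.00255). A negative value means that HOXB4 minus GFP was lower at 20 than at 12 weeks. Of these, Lyz2, Cybb, Ltf, Cd177, Lcn2 and Fcnb had higher means in HOXB4 cells at 12 weeks, not called, and were called lower at 20 weeks. Ighm was called higher in HOXB4 cells at 12 weeks (3.42, adjusted p = 0.000898) and was not called at 20 weeks (-0.53, adjusted p = 0.471).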

How the results depend on the processing

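At 20 weeks Lyz2, Cd68, F13a1, Csf1r, Ly86, Mpeg1 and Itgam were called lower in HOXB4 cells in all 24 alternatives, Ccr2 in 5 and Ctss in 1. Leaving out 1 array at a time gave 7 to 8 called genes at 20 weeks, 7 to 8 for the mean of both times (Itgam or Ccr2 lost), 0 to 3 at 12 weeks, 1 to 4 for the difference of effects and 4 to 8 within GFP cells. Within HOXB4 cells it gave 0 to 3 between 12 and 6 weeks, 0 to 0 between 20 and 12 weeks and 0 to 2 between 20 and 6 weeks. The count at 12 weeks, 1 as reported, was 6 with only the groups compared in the fit, 5 with array weights, and 2 without the dimmest 1 in 3 genes, with the mean of probe sets, with median centring and with a variance trend. Over all genes the count at 12 weeks ran from 214 to 2791. The difference of effects, 2 as reported, gave 4 with only the groups compared, 6 with array weights, and 1 with all named probe sets or a variance trend. The call of Ctss between 20 and 6 weeks was lost with only the groups compared and with array weights, which gave 0 called genes. The cause of these shifts was not tested.

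Same-numbered arrays did not deviate together over all genes (correlations of deviations -0.167 to 0.0741). Such a correlation cannot tell whether the numbers pair arrays in part of the genes. With the replicate number as a block, 7 genes were called at 20 weeks, 1 at 12 weeks, 8 for the mean, 5 within GFP cells and 1 for the difference of effects, where F13a1 had an adjusted p of 0.0602. No called difference of the 10 genes changed sign in any alternative, and 35 of the 1912 values over all comparisons and alternatives, none called, had the other sign. Across all genes, the counts of calls ran from 715 to 2408 at 20 weeks, 1787 to 4130 for the mean, 38 to 563 for the difference, 192 to 1892 within GFP cells, and 0 to 923, 1 to 108 and 1 to 1165 within HOXB4 cells for 12 against 6, 20 against 12 and 20 against 6 weeks. Without detection calls, dim genes such as Cd14 have little range in which to differ.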
